A study of Mus musculus with 8 samples.

Results

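The mitochondrial ribosomal protein genes of the mouse were examined for CTCF binding in cultured cortical neurons. They were taken as the protein-coding genes whose symbol begins with Mrpl or Mrps and a number, 78 of 21887 protein-coding genes on the assembled chromosomes, 49 named for the large subunit and 29 for the small one. The symbols fix the set, but it was proposed with earlier counts of these regions in view, so it is in part chosen by the measured values described below: which genes carry a region, where, in which list and how strong. In this series CTCF was mapped with ChIP-seq, sequencing of the DNA that an antibody to it brings down. The 8 samples are ChIP and input DNA of control and of NMDA-treated cultures, with 2 replicates of each. All neurons were wild type (WT), dissociated from Swiss-Webster mouse embryos at embryonic day 16 and used on day 13 in vitro. Control cultures had the treatment label None. NMDA, a ligand that opens the glutamate receptors named after it, was given at 50 µM for 10 minutes, followed by 50 minutes of recovery in drug-free medium. A growth protocol common to all samples also describes etoposide in DMSO, which no treatment label lists. No expression was measured, so the labelled cell type could not be checked against marker genes.

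CTCF is a zinc finger protein that recognises a long DNA motif and, with cohesin, anchors chromatin loops. It binds at many promoters as well as between genes. Mitochondrial ribosomes translate the few proteins encoded in mitochondrial DNA, all of them subunits of the respiratory chain and ATP synthase, on which neurons depend for energy. Their protein components are all encoded in the nucleus, in many small genes scattered over the chromosomes, here 17 of them. A gene name follows history rather than structure in places. Mrps18a encodes a component of the large subunit, and the product of Mrps36 is now assigned to the 2-oxoglutarate dehydrogenase complex.

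The authors' data are 1 list of reproducible regions for each condition, built over its 2 replicates, with 33815 control and 36186 NMDA regions. A region was assigned to a gene when its summit lay within the gene span (RefSeq, GRCm38.p6, the assembly of mm10) or up to 1 kb outside it. The 5′ and 3′ ends named below are those of the span. The start given by a RefSeq promoter can lie further in, as at Mrpl24 and Mrpl45. It was called shared if it overlapped a region of the other list by at least 1 bp, and control-only or NMDA-only otherwise. The signal of a region is the authors' −log10 p, which in the NMDA list is the sum of 2 replicate columns. Signals grow with sequencing depth, which is unknown, so they are compared as percentiles, the percentage of a list's other regions with a lower signal. With 1 list per condition, no difference between conditions could be tested against replicate spread. All comparisons below are descriptions of these lists.

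Promoter sequences are shown first, to set the summits beside the letters of the CTCF motif. Of the 78 genes, 69 matched the RefSeq promoter table of GRCm38.p6 (250 bases before the annotated start to 50 after it), with 75 promoters. Missing were Mrpl4, Mrpl13, Mrpl15, Mrpl19, Mrpl38, Mrpl54, Mrps28, Mrps34 and Mrps35. The core of the CTCF motif, 12 bases long with some positions left free, was searched on both strands. The 3 promoters below hold both a summit and an exact match (capitals), and are shown for the 250 bases before the start, 5′ to 3′ on the strand of the gene. Mrpl17 is at chr7:105811088-105811337 (minus strand), Mrpl34 at chr8:71464676-71464925 (plus strand) and Mrpl20 at chr4:155802628-155802877 (plus strand).
Mrpl17: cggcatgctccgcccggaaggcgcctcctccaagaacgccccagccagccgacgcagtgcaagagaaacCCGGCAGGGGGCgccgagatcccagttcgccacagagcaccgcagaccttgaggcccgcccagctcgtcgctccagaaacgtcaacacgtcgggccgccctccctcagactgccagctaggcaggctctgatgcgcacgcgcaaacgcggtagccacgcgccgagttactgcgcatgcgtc
Mrpl34: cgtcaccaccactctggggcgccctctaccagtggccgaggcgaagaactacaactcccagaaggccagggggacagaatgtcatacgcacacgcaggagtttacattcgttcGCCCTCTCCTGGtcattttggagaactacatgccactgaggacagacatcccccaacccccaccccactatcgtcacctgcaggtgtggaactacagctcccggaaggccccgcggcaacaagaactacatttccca
Mrpl20: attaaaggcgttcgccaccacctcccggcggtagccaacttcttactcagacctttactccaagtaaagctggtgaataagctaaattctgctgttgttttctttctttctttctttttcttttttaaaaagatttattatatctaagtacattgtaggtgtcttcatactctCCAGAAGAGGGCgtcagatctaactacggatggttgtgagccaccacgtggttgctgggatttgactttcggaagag

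At Mrpl17 the match fills bases 70 to 81, counted from 1 at the 5′ end of the promoter. The control summit lay at base 81 and the NMDA summit at base 76, so both fell within the matched letters. At Mrpl34 the match at bases 114 to 125 lay further from the summits, at base 37 in the control and base 50 in the NMDA list. At Mrpl20 the match at bases 174 to 185 also lay away from the single NMDA summit at base 48. The promoter of Mrpl52 also held an exact match (bases 248 to 259) across its start, with its NMDA summit at base 84.

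The small-subunit promoters with the strongest regions, those of Mrps16 and Mrps33, held no exact match, and are shown for that reason, chosen after their values were seen. Capitals mark the stretch nearest the summit with at most 1 mismatch to the fixed letters. Mrps16 is at chr14:20393491-20393740 and Mrps33 at chr6:39810937-39811186, both on the minus strand.
Mrps16: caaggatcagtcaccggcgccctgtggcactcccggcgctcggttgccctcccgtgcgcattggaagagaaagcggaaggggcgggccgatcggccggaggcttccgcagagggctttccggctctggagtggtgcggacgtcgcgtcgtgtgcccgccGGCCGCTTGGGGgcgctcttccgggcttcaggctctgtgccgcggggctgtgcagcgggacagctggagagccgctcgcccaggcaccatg
Mrps33: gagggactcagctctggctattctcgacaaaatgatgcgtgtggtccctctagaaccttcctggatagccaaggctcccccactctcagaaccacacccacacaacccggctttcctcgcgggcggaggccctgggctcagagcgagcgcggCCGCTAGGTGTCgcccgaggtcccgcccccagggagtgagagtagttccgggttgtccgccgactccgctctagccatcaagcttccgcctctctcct

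At Mrps16 the marked stretch spans bases 160 to 171 and both lists had their summit at base 163. At Mrps33 it spans bases 153 to 164, with summits at base 135 in the control and base 141 in the NMDA list. Such loose matches are common in promoters. A stretch with at most 1 mismatch lay somewhere in 62 of the 75 member promoters (82.7%) and in 69.9% of all 21263 promoters of protein-coding genes. Within 30 bases of the summit, 8 of the 11 member promoters that hold a summit had one, against 60.4% of the 2013 such promoters in all. Among the 8 were Mrpl20, with a stretch at bases 17 to 28, and Mrpl34, although their exact matches lay further from the summits. An exact match within that reach was found in 1 of the 11 (9.09%), at Mrpl17, against 17.6% of the 2013.

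Exact core matches were found in 10 of the 75 member promoters (13.3%) and in 9.88% of all promoters. Among the 11 member promoters with a summit 4 held one, against 31% of all promoters with a summit and 7.67% of those without. A summit of either list lay in 11 of 75 member promoters (14.7%), against 9.47% of all 21263. Motifs of other factors were counted in the same way. The core recognised by ETS factors such as GABP, CCGGAAG, was in 26 of 75 (34.7%) against 11.6% of all. The motif of YY1, a zinc finger protein, was in 7 (9.33%) against 1.38%, and that of NRF1, a factor known for genes of mitochondrial function, in 3 (4.00%) against 1.33%. ETS cores stood in 6 of the 11 member promoters with a summit and in 20 of the 64 without (17.4% and 11% of all promoters). YY1 motifs stood in none of the 11 and in 7 of the 64, while in all promoters their share was 2.09% with a summit and 1.3% without. Member promoters had a median of 21 CpG dinucleotides in 300 bases against 13 in all promoters, with a median GC content of 58.7% against 56.3%. CTCF summits also lay in GC-rich promoters in general, with a median GC content of 64.3% in all promoters with a summit and 55.3% in those without. These counts describe letters in a window, and the promoters of a gene can overlap.

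CTCF regions lay at 48 of the 78 genes, or 61.5%, counting either list. Over all protein-coding genes the share was 55.4%, but most members are short and long genes carry more regions. The median member span was 7690 bp, against 17224 bp for other protein-coding genes. When each member was set beside the other genes of its length decile, the share was 45.1%, which corresponds to 35.2 of 78 genes. A shared region lay at 41 members (52.6%, against 38% in the same deciles and 48.4% of all genes). By list, 43 members had a control region (55.1% against 40.8%, and 51.4% of all genes) and 46 an NMDA region (59.0% against 42.3%, and 52.7%). Regions were found at 19 of 29 genes named for the small subunit and at 29 of 49 named for the large one. No region lay in the windows of more than 1 member.

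**Figure D1:**
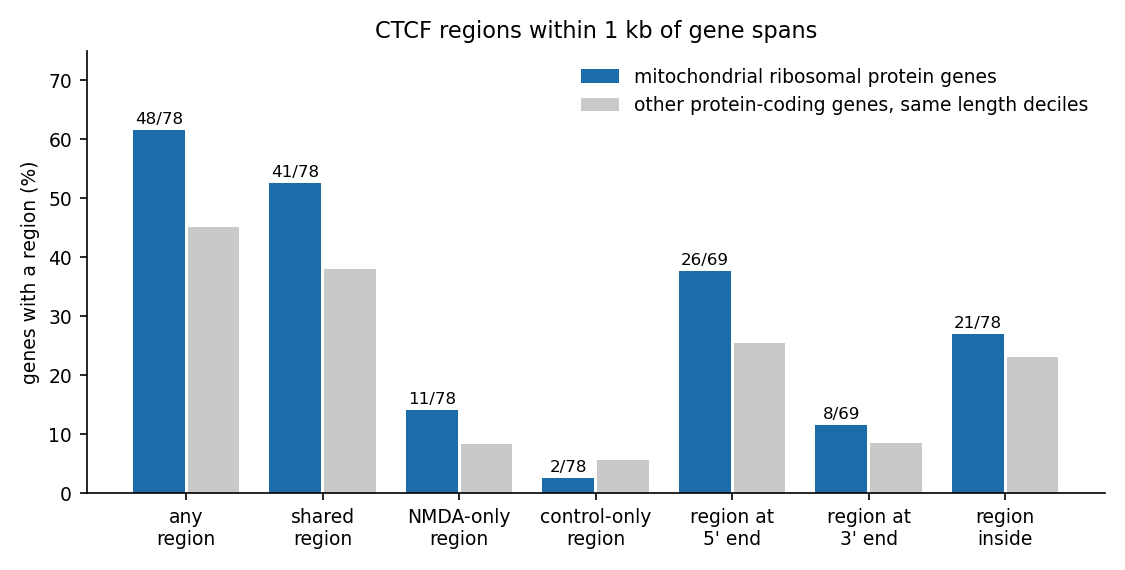
Percentage of the mitochondrial ribosomal protein genes (blue, with counts above the bars) and of other protein-coding genes of the same length deciles (grey) that carry each kind of CTCF region, counting either list and a window of 1 kb around the span. Members stand above the grey bars for any region (61.5% against 45.1%) and for the 5′ end (37.7% against 25.4%). They stand below them for control-only regions (2.56% against 5.64%), an order that turns under stricter definitions of a shared region. Without widening of the span the shares for any region were 35.9% against 35.5%. Those for NMDA-only regions, 14.1% against 8.35%, became 6.41% against 6.82% at a score of at least 830.

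The 30 members without a region in either list were Mrpl2, Mrpl3, Mrpl16, Mrpl19, Mrpl27, Mrpl28, Mrpl32, Mrpl35, Mrpl36, Mrpl37, Mrpl40, Mrpl41, Mrpl43, Mrpl44, Mrpl46, Mrpl47, Mrpl50, Mrpl53, Mrpl54, Mrpl55, Mrps7, Mrps9, Mrps15, Mrps17, Mrps18a, Mrps18c, Mrps22, Mrps23, Mrps35 and Mrps36. Some of them missed only by the width of the window. The member just inside it was Mrpl24, with summits 932 bp (control) and 938 bp (NMDA) outside its span. Mrps21 was inside through its control summit (862 bp) and outside through its NMDA summit (1121 bp), and Mrpl44 followed outside at 1188 bp in the NMDA list, with a signal of 52.6.

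The excess over other genes of like length was not seen within the spans alone. There, 28 members held a summit (35.9%), against 35.5% in the same deciles and 48.4% of all genes. Of the 69 members with a known strand, 17 had a summit in the 1 kb before the 5′ end (24.6%, against 12.4% in the same deciles and 12.6% of all 17492 genes with a strand). In the first 1 kb after it the number was 10 (14.5%, against 14.4% in the same deciles and 17.3% of all). Together 26 members had a region at the 5′ end (37.7% against 25.4%, and 28.2% of all). At the 3′ end it was 8 (11.6% against 8.58%, and 7.23% of all). Mrpl1, Mrpl12, Mrpl58, Mrps21 and Mrps30 were counted only through a summit beyond the 3′ end, a position not counted apart in other genes. Over 1 kb inside from both ends, 21 of the 78 had a region (26.9% against 23.2%, and 38.8% of all).

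The summits at 5′ ends gathered just upstream. In the control list 12 of 19 lay before the 5′ end and the median position was 138 bp upstream. In the NMDA list 16 of 23 lay before it, with a median of 175 bp upstream. In other protein-coding genes 43.1% of the control and 43.8% of the NMDA summits at the 5′ end lay before it, with medians of 82 and 79 bp downstream. These medians pool other genes of all lengths.

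**Figure D2:**
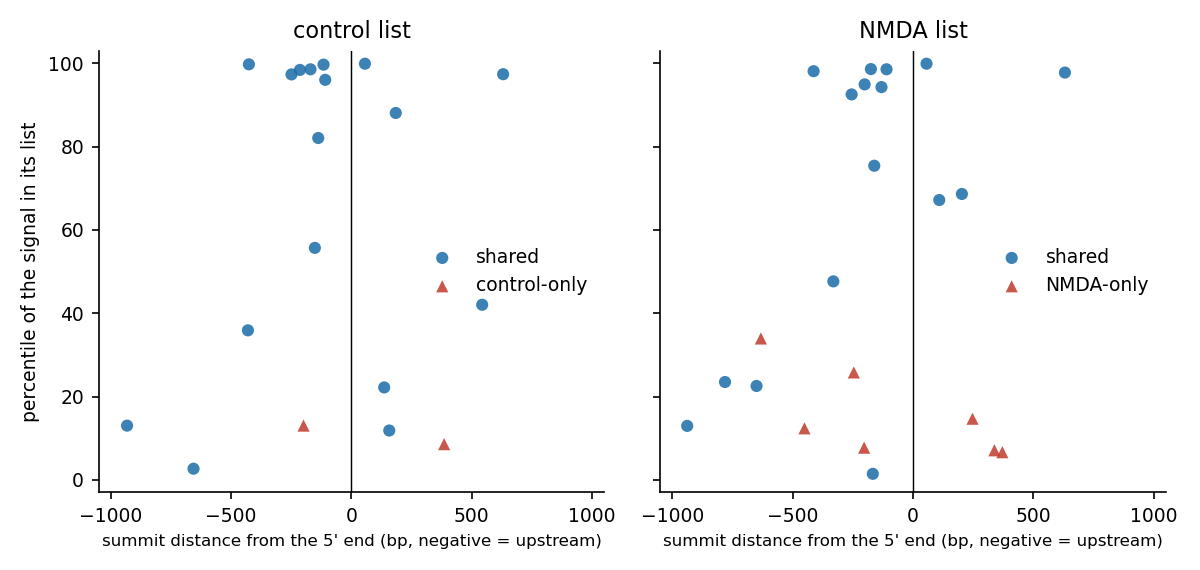
Position of each CTCF summit within 1 kb of the 5′ end of a member (horizontal axis, bp, negative upstream) and the percentile of its signal in its list (vertical axis), for the control list (left, 19 summits) and the NMDA list (right, 23 summits). Shared regions are circles and regions of 1 list are triangles. Of the 8 NMDA regions in the strongest 10%, 6 lie upstream of the 5′ end of the span, and no triangle stands above percentile 33.9.

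Where CTCF was found at a 5′ end, the signal was often among the strongest of its list. In the control list 8 of the 19 regions were in the strongest 10% (42.1%), against 20.4% of the 3948 regions at the 5′ ends of other genes. In the NMDA list it was 8 of 23 (34.8%) against 16.5% of 4033. Counted as genes, 8 of 69 members had such an NMDA region at the 5′ end (11.6%, against 4.24% in the same deciles and 4.14% of all). In any position 11 of 78 had an NMDA region of the strongest 10% (14.1% against 8.63%, and 10.4% of all), and 11 had a control region of that rank (14.1% against 9.09%, and 10.5%). Across all positions the median member region stood at percentile 51.7 in the control list and 45.8 in the NMDA list, against 47.4 and 47.2 for regions in other protein-coding genes. Over all positions the middle of the members' regions was thus near that of other genes. The strongest decile held 21.8% of the members' control and 19.4% of their NMDA regions, against 11% and 10.5% of those in other genes. At 5′ ends the median percentile was 82 against 46.6 in the control list and 47.6 against 41.6 in the NMDA list.

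The strongest region of all lay at Mrps16, which encodes a small-subunit protein conserved from bacteria. It covered chr14:20393032-20394095 in the control list and chr14:20392714-20394225 in the NMDA list. Its signal ranked 38 of 33815 in the control list (1937) and 39 of 36186 in the NMDA list (1169), with 484 in the first and 685 in the second replicate column. Both summits lay at the same base, in the sequence printed above. That base is 56 bp downstream of the 5′ end of the span and within 1 kb of the neighbouring gene Cfap70. The span reaches further out than the start of the promoter printed above. Another RefSeq promoter of Mrps16, at chr14:20393585-20393884, starts at the end of the span and held no summit.

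Mrpl17, a conserved large-subunit protein gene, followed in the NMDA list with a signal of 675 (331 and 344 in the replicate columns) and 1141 in the control list. It stood at percentile 98.6 in the NMDA and 98.5 in the control list, with summits 175 and 170 bp before the 5′ end, on the exact motif match. Mrps33, whose product is a small-subunit protein without a bacterial counterpart, had 669 in the NMDA list (343 and 326) and 1612 in the control list. Its summits lay 110 and 116 bp upstream. The region at Mrps12, which encodes the protein of the decoding centre, had 615 (320 and 295) and 1670, at chr7:28741315-28742657 in the NMDA list. Its summits lay 413 and 426 bp upstream, and it also falls at the 5′ end of Sars2, the gene of the mitochondrial seryl-tRNA synthetase on the opposite strand. All 4 genes were above percentile 98 in both lists.

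Mrps2, another conserved small-subunit gene, had a region inside its span, 2021 bp (NMDA) and 2036 bp (control) from the 5′ end. Its signal was 594 (316 and 278) in the NMDA and 1430 in the control list. The RefSeq promoter of Mrps2 in the table used here starts further in than the span, and both summits fell within it, at bases 157 and 172. Mrpl23, a gene of the polypeptide exit tunnel that neighbours the imprinted H19 and Igf2 domain, had a pair of strong regions. The region 631 bp downstream of the 5′ end had 589.6 (229 and 361) in the NMDA and 933 in the control list. The region 5592 bp downstream had 548 (215 and 334) and 547. The latter rose in percentile from 91.7 to 97.2 between the lists.

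Of the remaining genes among the 10 strongest, Mrpl34 (443 in the NMDA and 1112 in the control list) and Mrpl39 (424 and 770.3) had their summits upstream of the 5′ end. At Mrpl34 these lay 201 and 214 bp before it and also within 1 kb of Abhd8, a gene with its 5′ end nearby on the other strand. At Mrpl39 they lay 131 and 109 bp before it. Mrps27, which encodes a small-subunit protein with pentatricopeptide repeats, had its strongest region inside the gene, 8438 bp from the 5′ end (424 and 718). Mrpl45, the gene of a large-subunit protein that helps to hold the ribosome at the inner membrane, had its own 13454 bp from the 5′ end (381 and 528). Thus 7 of these 10 genes had their strongest region within 1 kb of the 5′ end of the span.

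Weak shared regions made up the other end of the range. Taking the strongest shared region of each member, the 5 lowest in the NMDA list were at Mrpl52 (19.8), Mrps31 (26.5), Mrpl9 (28.2), Mrpl24 (29.0) and Mrps5 (34.6). Their control signals were 54.2, 40.8, 55.6, 56.5 and 105.9 in the same order. The regions of Mrpl52 and Mrpl24 lay at the 5′ end, that of Mrpl9, a gene of the large subunit, at the 3′ end, and those of Mrps31 and Mrps5 inside. They covered NMDA percentiles from 1.44 to 18.98, against the list's lowest signal of 17.7.

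At 4 members a list held 3 or more regions. Mrps28, the longest of the members at 121712 bp, had 4 regions in each list, all shared. From low to high coordinates its NMDA signals were 74.6, 106, 273 and 38.3, and its control signals 103.1, 162, 415 and 94.1. The third of them, chr3:8916012-8917820, was the strongest in both lists. Mrpl48 had 2 control and 4 NMDA regions, and Mrpl45 and Mrps27 each had 2 control and 3 NMDA regions. The added NMDA regions of these 3 genes had no overlap in the control list and are described next.

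NMDA-only regions lay at 11 members (14.1%, against 8.35% in the same deciles and 14% of all genes), 12 regions in all. At gene ends they lay at 8 members (10.3%, against 4.18% in the same deciles and 4.28% of all genes). Their signals were low, from 21.5 to 54.1 with a median of 24.6, against 28.5 for all NMDA-only regions, and their percentiles ran from 3.33 to 33.9. Of the 62 NMDA regions at members, 80.6% were shared, against 84.2% of the regions in other protein-coding genes. At the 5′ end 16 of 23 were shared (69.6%), against 85.8% of 4033.

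The strongest NMDA-only region was at Mrpl45, 632 bp before the 5′ end of the span (chr11:97313882-97315069), with a signal of 54.1 and 23.8 and 30.3 in the replicate columns. The RefSeq promoter of Mrpl45 lies further in, at chr11:97315466-97315765. Next came Mrpl14, a gene of the large subunit, 246 bp before the 5′ end (chr17:45684902-45686663), with 42.0 (16.8 and 25.3). That end lies within 1 kb of the 5′ end of Tmem63b. Mrps27 had an NMDA-only region inside the gene (chr13:99356077-99357123) with 38.1 (10.0 and 28.1). Mrps24 had 30.5 (20.6 and 9.94) at 247 bp after the 5′ end (chr11:5707142-5707844), and Mrpl49 28.5 (16.4 and 12.2) at 451 bp before it, beside the ribosomal fusion gene Fau. The first replicate column was the higher at Mrps24 and Mrpl49 and the lower at the other 3.

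The other NMDA-only regions had signals under 25. They were at the 5′ ends of Mrpl20 (24.9), Mrpl48 (24.4) and Mrpl42 (24.0), at an end of Mrpl4 (21.5), and inside Mrps6 (24.3), Mrpl48 (23.8) and Mrpl18 (22.3). The region inside Mrpl18 (chr17:12915758-12916947) is also within 1 kb of Tcp1. The RefSeq promoter of Mrpl18 lies further in than the 5′ end of the span, at chr17:12916042-12916341 (minus strand). The summit lay upstream of that promoter. The nearest control region lay 985 bp away at Mrpl4, 1999 bp at Mrpl45 and 32979 bp at the inner region of Mrpl48. Under a stricter score of at least 830, 5 members had an NMDA-only region, and only those of Mrpl14 and Mrpl45 were the regions described above. At Mrpl48, Mrpl24 and Mrpl51 it was a region otherwise shared, whose control partner scored 820, 748 and 634 and was dropped. The NMDA-only regions of Mrpl48 named above scored 685 and 693 and were lost. The 5 members are 6.41% against 6.82% in the same deciles, so the higher share of members was not seen at this score.

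Control-only regions lay at 2 members (2.56%, against 5.64% in the same deciles and 9.28% of all genes), both at the 5′ end (at either end, 2.56% against 3.07% in the same deciles and 3.53% of all genes). Mrps6, a small-subunit gene, had a control-only region 199 bp before the 5′ end (chr16:92057671-92059124) with a signal of 56.5, at percentile 13.02. It lies within 1 kb of Slc5a3, the gene of a myo-inositol transporter. Mrpl57, a large-subunit gene, had a control-only region 385 bp after the 5′ end (chr14:57825797-57827626) with 48.7, at percentile 8.56, within 1 kb of Ska3. All control-only regions had a median signal of 50.4. Mrps6 had an NMDA-only region as well, inside the gene and 44798 bp from the nearest control region. Counts of list-only members changed with the definition of a shared region, and with summits required to lie within 100 bp they were 17 for NMDA-only (21.8% against 13% in the same deciles) and 11 for control-only (14.1% against 10.5%). Control-only members were then above the share of the same deciles, as they were with a reciprocal overlap of 50% (8.97% against 8.59%), the opposite of the order under 1 bp of overlap.

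Shared regions mostly kept a similar percentile in both lists. There were 48 pairs at members in which 1 control region overlapped 1 NMDA region and neither overlapped another. The percentile was higher in the NMDA list in 23 and lower in 25, with a median difference of −0.284 percentile points (NMDA minus control). Pairs in other protein-coding genes had a median of 1.86. The median size of the difference at members was 5.42 points. Between the 2 replicate columns of the NMDA list, the same regions differed by a median of 8.33 points. In 16 of the 48 pairs the gap between conditions was wider than the gap between replicate columns. These gaps are unlike measures, since the NMDA percentile rests on the sum of both columns and each replicate percentile on a single column. In other protein-coding genes it was wider in 7071 of 17775 pairs, and the percentile was higher in the NMDA list in 10589. No replicate values are given for the control list.

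**Figure D3:**
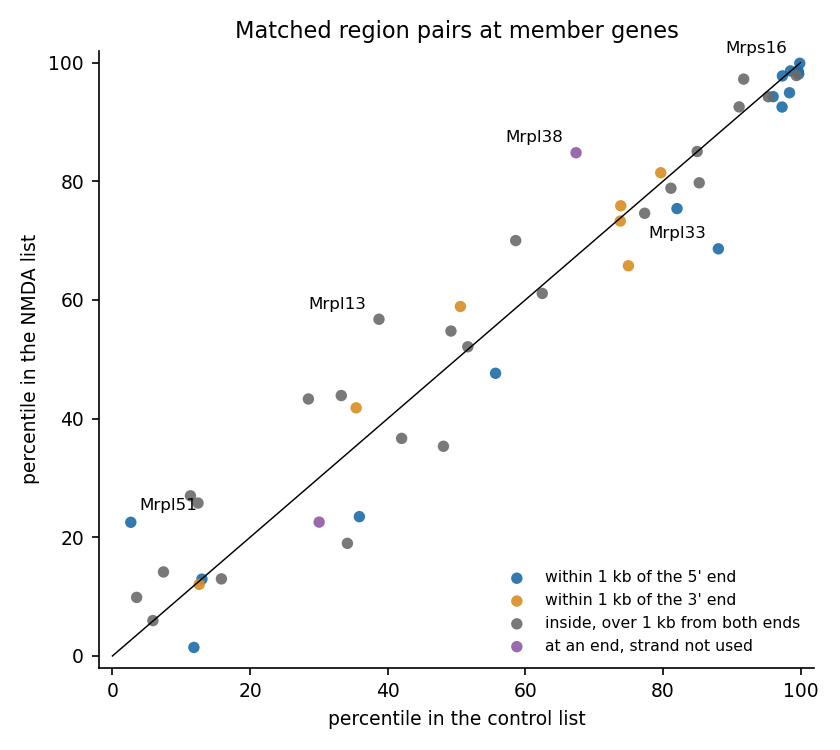
Percentile of the signal in the control list (horizontal axis) against the NMDA list (vertical axis) for the 48 matched region pairs at members, coloured by position in the gene, with the line of equal percentile. Most pairs lie near the line, and Mrpl51, Mrpl13 and Mrpl38 lie furthest above it and Mrpl33 furthest below.

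The widest rise was at Mrpl51, a large-subunit gene without a bacterial counterpart, from percentile 2.67 to 22.5. Its signal was 39.3 in the control and 38.3 in the NMDA list (16.2 and 22.2 in the replicate columns), so the same value ranked higher in the list with lower signals. The replicate columns differed by 1.64 points there. Mrpl13, a conserved large-subunit gene, rose by 18.01 points at 1 of its 2 regions (121 in the control and 113 in the NMDA list), and Mrpl38 by 17.4 points at its end region (257 and 271). The first replicate column minus the second gave −8.31 points at the Mrpl13 and 1.78 points at the Mrpl38 region.

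The widest fall was at Mrpl33, which encodes a short large-subunit protein, from percentile 88.1 to 68.6. Its signal was 463 in the control list and 162 in the NMDA list (82.4 and 79.3). The replicate columns differed by 17.8 points, close to the gap of 19.4 points between conditions. Mrps5 went from 34.2 to 18.98 (105.9 and 34.6) and Mrpl42 from 48.1 to 35.3 (157 and 56.4). At Mrpl42 the first replicate column minus the second gave −28.6 points, a wider gap than that between conditions.

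Mrps18b fell outside these pairs, since 2 control regions overlapped a single NMDA region there, and is named after its values were seen. The region at its 5′ end had a control signal of 74.4 (percentile 22.2) and an NMDA signal of 155 (percentile 67.2), with 80.5 and 74.3 in the replicate columns. The region also lies within 1 kb of Ppp1r10, which encodes a regulator of protein phosphatase. Such percentiles compare regions of unequal width, 1193 bp in the control and 1831 bp in the NMDA list.

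Summits of matched regions moved little. The median shift between lists was 18 bp at members, and 18 bp in other protein-coding genes, while the summits of the 2 replicates of the NMDA list lay a median of 39 bp apart in the same member regions. Shifts over 100 bp occurred in 6 of the 48 pairs (12.5%), against 7.16% in other genes. The 4 genes given here were picked after their values were seen. The widest shift was at Mrpl30, where the summit moved by 552 bp, from 543 bp after the 5′ end in the control list to 1095 bp in the NMDA list. At Mrps25 and Mrpl52 the shifts of 351 and 324 bp were smaller than the distance between replicate summits, 704 and 546 bp. At Mrpl30 (33 bp) and at Mrpl58 (20 bp), where the shift was 429 bp, they were larger.

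How the 2 replicate columns of the NMDA list compared varied with position. At the 5′ end the first column was the higher in 11 of 23 regions (47.8%), against 34.4% at the 5′ ends of other genes. Inside the genes it was higher in 7 of 28 (25% against 20% in other genes), and at the 3′ end in 0 of 7 (25.5% in other genes). Over the whole list it was higher in 20.6% of regions, and its median was 32.1 against 56.1. At 5′ ends the percentile in the first column exceeded that in the second by a median of 6.26 points (5.44 in other genes), while inside member genes it was lower by 8.16 (−8.16 against 0.451 in other genes).

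Mrps14 and Mrps26, small-subunit genes, show the contrast with Mrps28 and Mrpl13, and all 4 are named here after their values were seen. The region 255 bp before the 5′ end of Mrps14 had 222 in the first and 159 in the second column. The strongest region inside Mrps28 had 49.2 and 224. Mrps26 had 51.9 and 32.3 at 331 bp before its 5′ end, and the stronger region inside Mrpl13 had 32.8 and 189. Which culture each column represents is not stated and the part of depth in this pattern was not tested.

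**Figure D4:**
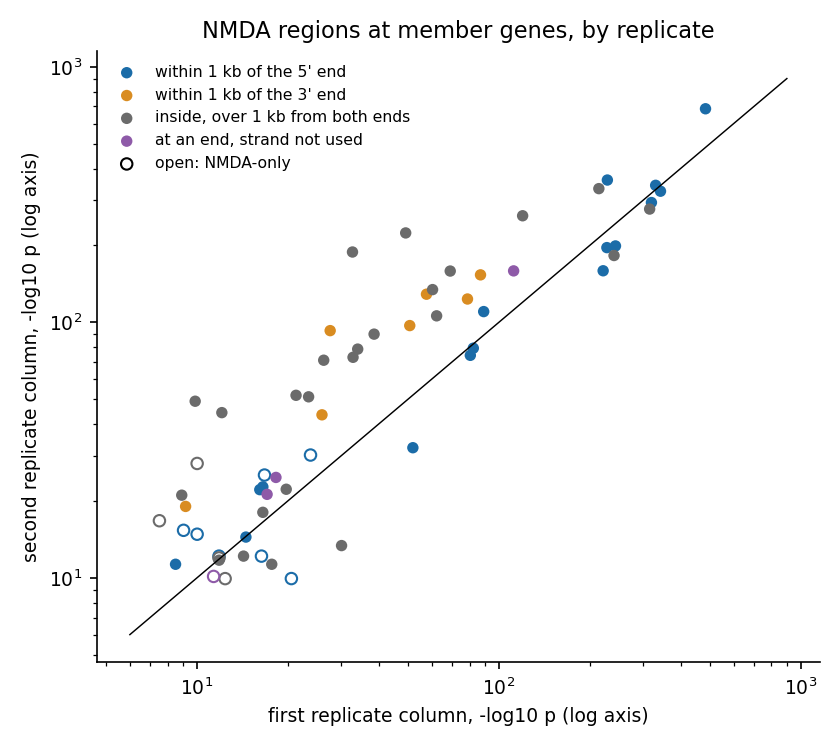
Signal of the 62 NMDA regions at members in the first (horizontal) and second (vertical) replicate column, as −log10 p on log axes, coloured by position, with NMDA-only regions as open circles and the line of equal signal. Regions inside genes and at 3′ ends lie mostly above the line, while those at the 5′ end lie along it, 11 of 23 of them below.

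Mitochondrial ribosomal protein genes are often packed close to another gene. Another protein-coding gene span lay within 1 kb of an end in 47 of 78 (60.3%). The share was 34.9% in the same length deciles and 30.6% in all protein-coding genes. In 27 of 69 the 5′ end of a gene on the other strand lay within 1 kb of their own 5′ end. This was 39.1%, against 10.9% in the same deciles and 10.3% of all genes with a strand. Examples are Mrpl46 with Mrps11, 2 members that share such an end, and Mrpl43 with Twnk, the gene of the mitochondrial DNA helicase. Mrpl47 with Ndufb5, a respiratory complex gene, is another. These pairings were seen in the gene table and named after that.

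CTCF regions at gene ends were then counted with and without such a neighbour. Over the 78 members 38 had a region at an end (48.7%, against 31.4% in the same deciles and 33.2% of all genes). Of the 47 with a neighbour 17 had one (36.2%, against 40.9% in the same deciles and 41.9% of all genes with a neighbour). Of the 31 without a neighbour 21 had one (67.7%, against 28.0% and 29.3%). Members that stand alone thus had the higher share, while among other genes those with a close neighbour had it. Judged by opposite 5′ ends, 9 of the 27 members with one had a region at the 5′ end (33.3% against 41.3%, and 44.6% of all such genes). Of the 42 without one it was 17 (40.5% against 24.0%, and 26.3%). The split was made after the data were seen and was not tested. Mrps14, Mrps33, Mrpl17 and Mrpl39 are among the members without a neighbour, and Mrps12, Mrps16 and Mrpl34 among those with one.

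**Figure D5:**
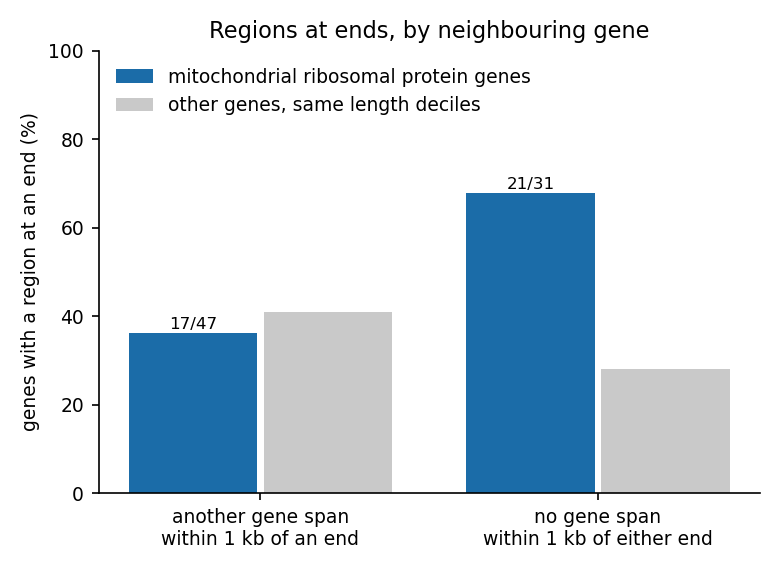
Percentage of genes with a CTCF region within 1 kb of an end, for genes with another protein-coding gene span within 1 kb of an end (left) and without one (right), for members (blue, with counts) and other protein-coding genes of the same length deciles (grey). Members without a neighbour reach 67.7% against 28.0%, and those with a neighbour 36.2% against 40.9%.

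Other genes of mitochondrial translation were counted from a list of 62, of which 61 were found in the gene table. The list holds translation factors, assembly factors, rRNA modifiers, aminoacyl-tRNA synthetases, the transcription apparatus and ribosomal proteins with other names. Regions lay at 42 of the 61 (68.9%, against 55.5% in the same deciles and 55.4% of all genes). At the 5′ end they lay at 25 of 49 with a strand (51.02% against 28.9%, and 28.2% of all). NMDA-only regions lay at 11 (18.03% against 12.3%, and 14% of all genes) and control-only regions at 3 (4.92% against 7.88%, and 9.28%). The strongest NMDA regions were at Sars2 (the region of Mrps12), at the elongation factor genes Tsfm (489.7) and Gfm1 (483), at the helicase gene Dhx30 (482) and at the rRNA methyltransferase gene Mrm2 (413). At Tsfm and Gfm1 the NMDA summits lay 69 and 83 bp before the 5′ end.

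Of the genes with a list-only region, the asparaginyl-tRNA synthetase gene Nars2 had the strongest, an NMDA-only region inside the gene with 156 (32.0 and 124 in the replicate columns). NMDA-only regions with lower signals lay at the start of Polrmt (71.4), the mitochondrial RNA polymerase gene, and at the elongation factor genes Guf1 (74.4) and Tufm (64.8). Tfb2m, a partner of Polrmt in transcription, had 38.5 inside the gene. Control-only regions lay at Ddx28 (78.1), Dap3 (46.8) and Fars2 (38.5), of which Dap3 encodes a ribosomal protein under another name. The member genes and this list thus both carried a region more often than other genes of their length deciles. This held at the 5′ end and over the widened span as a whole. Over 1 kb inside from both ends this list had no higher share (36.07% against 36.37%, and 38.8% of all genes). It was not counted without the widening, where the members had 35.9% against 35.5%.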

How the data were processed

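CTCF ChIP-seq of primary neurons was deposited as 1 region list per condition. The submitters' processing notes name Trimmomatic and FastQC, besides BWA, SAMtools, MACS2, mm10 and GRCm38.p6, without versions or settings. The deposited −log10 p of each region grows with depth, which the lists do not hold, and was used only as a percentile within a list. The deposited score was at least 540 in both lists. In all 62 NMDA regions at members the signal equalled the sum of the 2 replicate columns within 0.001. Inputs were not analysed here.

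Regions on assembled chromosomes were placed by summit with Python 3.11.15 and pandas 2.3.3. RefSeq gene spans and promoters of GRCm38.p6 gave ends and strand, and a span over 1 kb from a summit was not counted. Shares in other genes were averaged over the members' 10 length deciles. No test was made. Members and lists were chosen with earlier results of these data known. Steps were tested on simulated data.

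Genes named were the 10 members with the strongest NMDA regions, those with a list-only region, those with at least 3 regions in a list, the 3 with the widest percentile change each way, the 5 weakest shared, and of the other translation genes the 5 strongest and up to 8 with list-only regions.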

Additional observations from a re-analysis of the deposited data

How the results depend on the processing

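No paired analysis was possible because each condition is 1 list over both replicates and the control list holds no replicate values. For the same reason no replicate could be left out. The number of members with a region, 48, became 28 without widening of the span (35.9% against 35.5% in the same deciles) and ran from 38 to 54 under the other 4 settings, above the share of the same deciles in each. Without length matching the share in other genes was 55.4%. NMDA-only members numbered 5 at a score of at least 830 (6.41% against 6.82% in the same deciles) and 17 with summits within 100 bp (21.8% against 13%). Control-only members numbered 7 with a reciprocal overlap of 50% (8.97% against 8.59%), 11 with summits within 100 bp (14.1% against 10.5%) and 4 with the NMDA list limited to the size of the control list (5.13% against 6.88%). The first 2 of these turn the order against other genes, which was 2.56% against 5.64%. The share of members without a neighbour that had a region at an end ran from 48.4% to 69.7% under 5 settings chosen after seeing the data. In other genes of the same deciles it was 22.4% to 28.7%. The unknown depth limits which weak regions could be listed.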
